A study of Mus musculus with 2 samples.

Results

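The Keratinocyte class of this mouse thymus data set is the group of 768 cells to which the authors' deposited cell table gave the name Keratinocyte, out of 9185 annotated cells in 15 classes (8.36%). They are medullary thymic epithelial cells (mTEC) that carry a gene program of stratified skin. No measured value was used to choose them here beyond the authors' own naming. RNA was counted in single cells by droplet sequencing of the 3′ ends of transcripts, from C57BL/6 mTEClo (the mTEC fraction with little MHC class II on its surface) sorted as negative for Pdpn and CD104. All 7 samples were marked with their own antibody tag and went through a single run. The 3 control samples (Hnf4ctrl) were Foxn1(cre/+) Hnf4a(fl/+) Hnf4g(+/-), so they carry the cre driver, a floxed copy of Hnf4a and a null copy of Hnf4g. The 4 mutant samples (Hnf4dTEC) were Foxn1(cre/+) Hnf4a(fl/fl) Hnf4g(-/-). The Foxn1 driver acts in thymic epithelium, whereas the labels write the Hnf4g alleles as null and not floxed. The labels give no ages and do not say whether the samples were separate animals, so p-values measure only the spread between these samples.

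Thymic mimetic cells are mTEC that switch on the transcription factors and genes of cells outside the thymus, which lets developing T cells meet those tissue proteins. In skin, keratinocytes leave the basal layer, replace the keratins Krt5 and Krt14 with Krt1 and Krt10, and then build a cornified envelope, in which transglutaminases cross-link proteins such as involucrin, loricrin and filaggrin under a lipid coat. Kallikrein proteases and their inhibitors set the pace at which the outer cells are shed. Hnf4a and Hnf4g encode nuclear receptors best known for driving genes of gut and liver epithelium.

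The control samples held 85, 74 and 128 Keratinocyte cells, and the mutant samples held 143, 120, 121 and 97. Summed over these cells a sample had between 813683 and 1930257 UMIs (molecular tags, each marking a captured RNA molecule), with a median per cell between 9810 and 13002. No cell barcode was shared between samples. In 4 Keratinocyte cells, all of mutant sample 3, the most abundant tag belonged to another sample. Levels are given as CPM, a gene's UMIs per 1000000 UMIs summed over the class in a sample. Because the assay tags transcript ends, levels of different genes are not ranked against each other.

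The class carried the markers of differentiating skin in every sample. Krtdap, a secreted protein of differentiating keratinocytes, stood at 7171, 6772 and 9195 CPM in the control samples and 8468, 4977, 5901 and 8566 CPM in the mutant samples, against a mean of 34.5 CPM in all other annotated cells. Krt10, a keratin of the suprabasal layers, had 1234, 920.5 and 1789 CPM in the control samples and 1958, 1438, 1435 and 1620 CPM in the mutant samples. The lowest of these 7 samples was still above the mean of 32.6 CPM in the other cells. Its partner Krt1 ranged from 327 to 1326 CPM, against 8.51 CPM in the other cells. Ivl, which encodes the envelope protein involucrin, ranged from 125 to 209 CPM against 1.41 CPM. Sbsn, a secreted suprabasal protein, had a mean of 734 CPM against 19.4 CPM, and Grhl1, a Grainyhead-family transcription factor of the epidermis, 212 CPM against 10.4 CPM. These comparisons of the class with other cells are descriptions, since the class was named from the same cells.

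Single cells varied in how much of this program they showed. At least 3 of the 6 markers were seen in 486 Keratinocyte cells (63.3%) and in 4.17% of the other annotated cells, while 65 Keratinocyte cells (8.46%) showed none of them. With each cell thinned to 5000 UMIs, Krtdap was seen in 59.2% of Keratinocyte cells and in 6.39% of Tuft cells, a class that should lack it, and Ivl in 28.1% and 0.361%. Without thinning the shares were 64.6% and 14% for Krtdap, and 34.8% and 0.510% for Ivl, at median depths of 11813 UMIs in Keratinocyte cells and 12186 in Tuft cells. Krt1 was seen in the fewest cells of the 6 markers, at 23.4% of thinned Keratinocyte cells and 5.62% of Tuft cells.

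**Figure D1:**
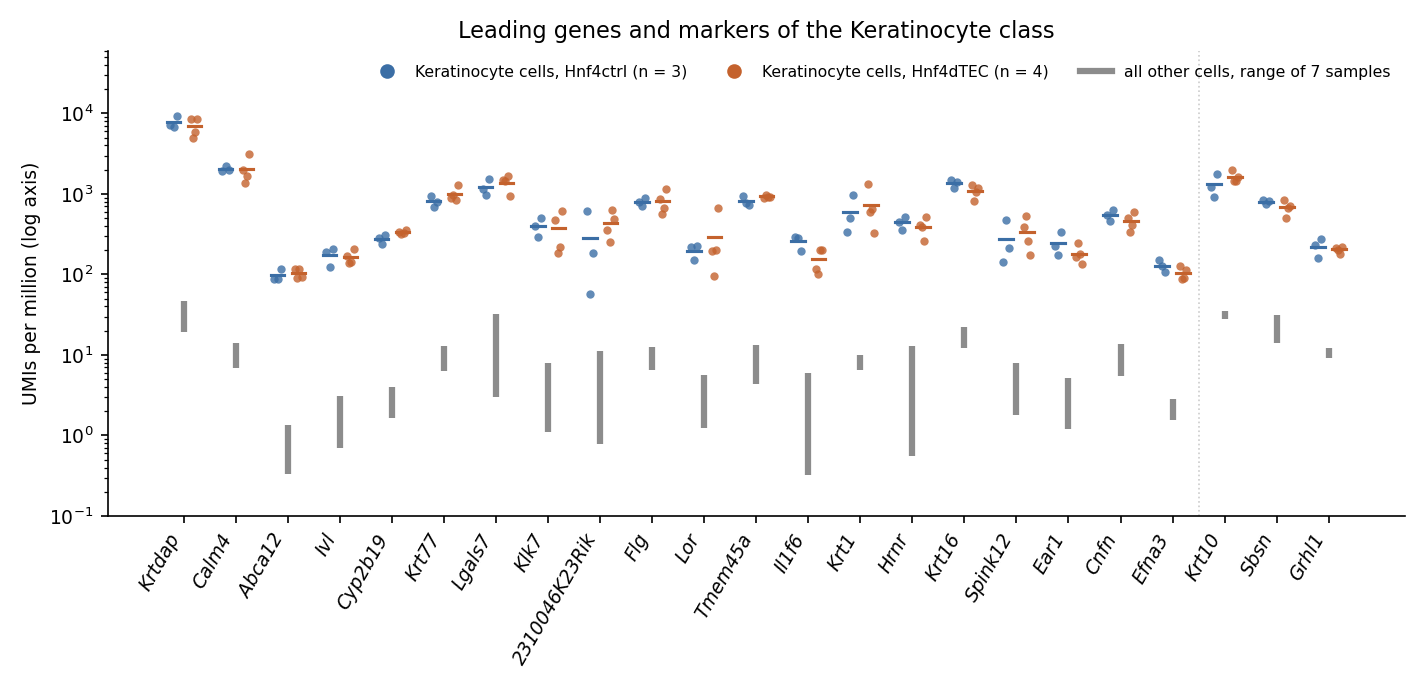
Level in CPM (log axis) of the 20 leading genes and, right of the dotted line, the remaining markers, with a point per sample and a line at the mean of each genotype, and a grey bar for the range of the 7 samples in all other annotated cells. For Krtdap the points lie between 4977 and 9195, and the mean of the other cells is 34.5.

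The 20 genes that set the class furthest apart, among those with at least 100 CPM in it, were mostly genes of the outer epidermis. Krtdap was 212 times as high as in the other cells. Calm4, a calmodulin-like protein of skin, was 188 times as high, and Abca12, the transporter that loads lipids into lamellar granules, 135 times. Ivl, the cytochrome Cyp2b19 and the keratin Krt77 followed at 120, 105 and 96.1 times. Further down stood Lgals7 (galectin-7), the protease Klk7, Flg (filaggrin), Lor (loricrin), the interleukin Il1f6, also called Il36a, Hrnr (hornerin) and Cnfn (cornifelin), with ratios between 95.7 and 60.7. Lor varied between samples, from 95.7 CPM in mutant sample 2 to 666.5 CPM in mutant sample 4. Calm4, Ear1 and Krt16 have close relatives in the genome, so the split of reads between copies is uncertain for them. A genome position was found for 19 of the 20 genes, and 6 of these (Efna3, Lor, 2310046K23Rik, Ivl, Flg and Hrnr) lay on chromosome 3 between 89313899 and 93333570 in mm10. That stretch holds the epidermal differentiation complex, a cluster of cornified envelope genes.

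RefSeq (GRCm38.p6) promoter entries were found for 15 of the 20 genes, giving 16 windows of 250 bases before a transcription start. Of these, 4 held the AP-1 motif TGANTCA on either strand (25%), against 6.75% of 32851 promoters of the same length. The TATA motif TATAAA, searched on both strands, was in 5 of 16 (31.2%), against 12.4%, and the C/EBP motif TTGCNNAA in 5 of 16 (31.2%), against 9.56%. The Grainyhead motif AACCGGTT was in 0 of 16, against 0.116%, and the HNF4 motif CAAAGTCCA in 0 of 16, against 0.384%. Matches are descriptions of letters in these windows and not of binding. The 4 windows with an AP-1 motif belong to Krtdap, Ivl, Lor and Flg, and each also holds a TATA motif. They are printed to show this shared layout, 5′ to 3′ along the gene, with AP-1 and TATA matches in capitals. They lie at chr7:30787655-30787904 (plus strand), chr3:92573736-92573985 (minus strand), chr3:92083143-92083392 (minus strand) and chr3:93273296-93273545 (plus strand).
Krtdap: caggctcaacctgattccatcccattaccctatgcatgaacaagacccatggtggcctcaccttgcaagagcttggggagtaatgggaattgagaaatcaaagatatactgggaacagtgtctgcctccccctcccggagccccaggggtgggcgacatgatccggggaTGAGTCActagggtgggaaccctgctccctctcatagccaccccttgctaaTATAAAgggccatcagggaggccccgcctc
Ivl: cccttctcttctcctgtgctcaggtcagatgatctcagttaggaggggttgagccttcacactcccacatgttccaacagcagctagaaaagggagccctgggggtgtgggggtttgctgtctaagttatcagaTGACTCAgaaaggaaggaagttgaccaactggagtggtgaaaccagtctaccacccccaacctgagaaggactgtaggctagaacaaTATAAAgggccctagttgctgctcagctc
Lor: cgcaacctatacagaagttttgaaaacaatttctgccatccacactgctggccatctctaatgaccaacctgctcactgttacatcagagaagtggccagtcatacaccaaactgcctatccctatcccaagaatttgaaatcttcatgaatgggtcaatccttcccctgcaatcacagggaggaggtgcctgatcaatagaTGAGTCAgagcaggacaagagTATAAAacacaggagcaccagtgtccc
Flg: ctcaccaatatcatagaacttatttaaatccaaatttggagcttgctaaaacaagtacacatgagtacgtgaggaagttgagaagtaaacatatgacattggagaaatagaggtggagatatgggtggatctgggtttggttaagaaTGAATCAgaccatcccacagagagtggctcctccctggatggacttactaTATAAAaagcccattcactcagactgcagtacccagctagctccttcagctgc

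The wider epidermal program was taken up unevenly. All 16 spinous layer genes were higher than in the other cells, with a summed level of 26654 CPM against 1422 CPM, led by Krtdap, Krt17, Ly6d and Dmkn. Of 29 cornified envelope genes, 21 were higher, and their sum was 5035 CPM against 281 CPM. Within that list Sprr1a, a small proline-rich envelope protein, had 1260 CPM and Rptn (repetin) 775.0 CPM. Members of that list at 0 UMIs were Sprr3 and 5 late cornified envelope (Lce) genes. Of all 21 Lce genes in the matrix, 12 had 0 UMIs in the class, and the 21 together had 134 UMIs (13.7 CPM). Most of these were of Lce6a (62 UMIs) and Lce1f (46 UMIs), which were higher than in the other cells, at 5.95 CPM against 0.236 CPM and 4.13 CPM against 1.29 CPM. A count of 0 allows up to 0.306 CPM. The Aire-expressing class held 3835 Lce UMIs (263 CPM).

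Proteases, inhibitors and lipid enzymes of the skin barrier were also present. Spink5, the inhibitor of epidermal kallikreins, had a mean of 2884 CPM against 250 CPM in the other cells, and Klk7, which cleaves the links between cornified cells, 385 CPM against 4.05 CPM. Asprv1, the protease that processes filaggrin, had 1078 CPM against 48.8 CPM. Of 20 barrier lipid genes, 19 were higher than in the other cells. They included Elovl4, which makes very long fatty acids, at 443 CPM against 9.30 CPM, and the lipase Lipm at 211 CPM against 4.54 CPM. Of 13 genes of desmosomes and tight junctions 12 were higher, with Dsp (desmoplakin) at 1543 CPM against 305.5 CPM and Perp at 960 CPM against 87.9 CPM. Of the 24 transcription factors, 20 were higher. Cebpb had 638 CPM against 92.05 CPM, and Trp63, the stratified epithelium regulator p63, 340 CPM against 62.7 CPM. Defb6, a beta-defensin, had 2209 CPM against 44.2 CPM. The 11 genes of MHC class II presentation, by which mTEC present antigen to T cells, summed to 5351 CPM against 9243 CPM. That list also holds Cd40, Cd80, Cd86 and Ctss. Of the 11, 2 were higher than in the other cells, Cd80 (58.2 CPM against 36.8 CPM) and Cd86 (6.22 CPM against 3.64 CPM).

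Markers of other cell types were looked for among the same cells. The 8 tuft markers summed to between 476 and 573 CPM in the control samples and between 544 and 898 CPM in the mutant samples, against 4079 CPM in the other cells. The 8 secretory markers summed to 2505 CPM in Keratinocyte cells against 514 CPM elsewhere, which rested on 2 of them. These were Scgb1a1 (1374 CPM against 143 CPM) and Bpifa1 (1051 CPM against 180 CPM), secreted proteins of airway epithelium, and the other 6, such as Ltf (51.4 CPM against 79.4 CPM) and Muc5ac (3.64 CPM against 15.4 CPM), were lower in Keratinocyte cells. The 8 entero-hepato markers summed to between 699 and 2739 CPM in control and between 356 and 1756 CPM in mutant samples, with Reg3g between 83.9 and 2451 CPM over the 7 samples. Thymocyte and fibroblast markers summed to 10.3 and 2.57 CPM. Myeloid and B cell markers summed to between 114.5 and 271.5 CPM over the 7 samples, against a mean of 318 CPM in the other cells. Most of this was Lyz2 (149.9 CPM), while Itgam was above the other cells (14.7 CPM against 2.92 CPM) and Tyrobp had 0 UMIs. Endothelial markers summed to between 72.5 and 130.2 CPM, above the 25.7 CPM of the other cells. Flt1, a receptor for vascular growth factors, held most of it (87.5 CPM against 6.05 CPM), while Cdh5 and Kdr of that list had 0 UMIs, as did Col3a1 of the fibroblast list. A count of 0 allows up to 0.306 CPM here. The part these markers play in the results was not tested.

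The class was not uniform. Clustering of its 768 cells, without the 9 genes that differ by genotype below, gave 5 sub-groups, which are called by number because the same genes made and describe them. Sub-group 1 (233 cells, 30.3%) was led by Klk7, Cacna2d4, Rnf227, Cdsn and Crct1. Sub-group 2 (179 cells) was led by Cstdc5, Ggct, Krt1, Casp14 and Krt6a. Sub-group 3 (161 cells) was led by Cdh11, Cdh9, Sorcs1, Nos2 and Brinp3. Sub-group 4 (151 cells) was led by Resp18, Lyz2, Cyp2f2, Bpifa1 and C530008M17Rik. Sub-group 5 (44 cells) was led by A330049N07Rik, Srpx2, Pik3cg, Nrgn and Rasgrf2. These are the first 5 of each sub-group by the ratio to the other Keratinocyte cells, listed after their values were seen.

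The keratinocyte label rested mainly on sub-groups 1 and 2. The 6 markers summed to 17220 and 19286 CPM there, and to 1716, 645 and 3817 CPM in sub-groups 3, 4 and 5, where even the lowest was above the 107 CPM of the other annotated cells. Involucrin (Ivl) was at 264 and 311.5 CPM in sub-groups 1 and 2, and at 8.57 and 22.9 CPM in sub-groups 3 and 4. The order turned round for the summed genes of MHC class II presentation. They stood at 2478 and 2006 CPM in sub-groups 1 and 2 and at 9056 and 10739 CPM in sub-groups 3 and 4. Krt5, a keratin of basal cells, had 450 and 685 CPM in sub-groups 1 and 2 and 1148 and 1213 CPM in sub-groups 3 and 4. The basal keratin Krt14 did not follow it and was highest in sub-group 2. Krt14 had 249.5 and 736.5 CPM in sub-groups 1 and 2, and 355.9 and 465.9 CPM in 3 and 4. Krt15 had 1.34 and 74.0 CPM against 187 and 0 CPM. The whole basal keratinocyte list summed to 862 and 1655 CPM against 2237 and 2175 CPM. Secretory markers summed to 4670 CPM in sub-group 4, where Bpifa1 reached 4289 CPM, and Scgb1a1 was highest in sub-group 2 at 2654 CPM. Tuft markers summed to 4116 CPM in sub-group 5, against 205 to 440 CPM in the others. Trpm5, a channel of tuft cells, was seen in 93.2% of its cells, whose median depth was 20234 UMIs. No doublet caller was run, so how many of these cells are pairs of cells was not tested.

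**Figure D2:**
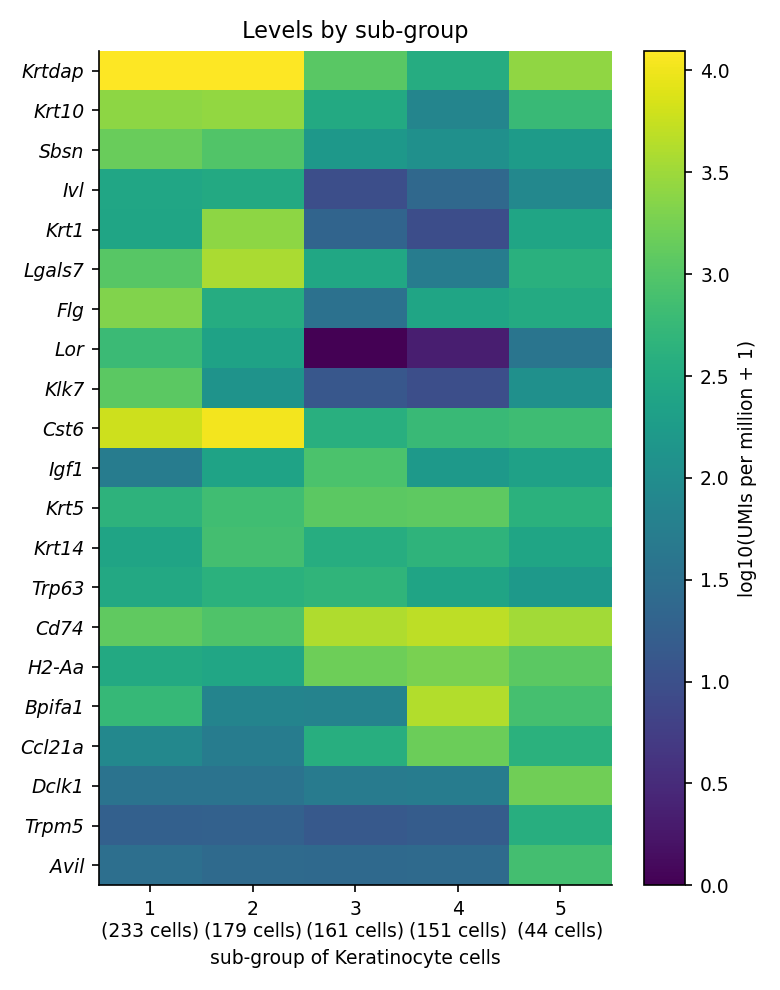
Heat map of 21 genes (rows) in the 5 sub-groups of Keratinocyte cells (columns), coloured by log10 of CPM plus 1, summed over the cells of all samples. Krtdap is at 12471 and 12493 CPM in sub-groups 1 and 2 and at 348 CPM in sub-group 4, where Bpifa1 is at 4289 CPM, and Dclk1 of tuft cells is at 1590 CPM in sub-group 5.

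The next question was whether loss of both receptors changed how many of these cells there are. Keratinocyte cells made up 10.6%, 8.09% and 8.11% of the annotated cells of the control samples and 8.66%, 8.72%, 8.13% and 7.07% of those of the mutant samples. The groups overlapped. The means were 8.94% ± 1.45 (SD, n = 3) and 8.14% ± 0.764 (SD, n = 4), and a two-sided exact permutation test over 35 splits gave p = 0.543, where the smallest possible p is 0.0286. The log2 fold change of the cell number in edgeR was -0.13 (SE 0.27, adjusted p = 0.971). Without control sample 1 the difference of the means turned from -0.793 to 0.0449 percentage points. A sort on surface markers precedes these shares, and it can set them.

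The make-up of the class by sub-group was compared in the same way, with tests added after the data were seen. Sub-group 3 took 12.9% to 18.9% of Keratinocyte cells in control and 20% to 28.9% in mutant samples, without overlap. Its exact permutation p was 0.0571, or 0.214 adjusted over the 5 sub-groups, so the difference did not pass. Sub-group 2 took 24.3% to 28.2% in control and 18.6% to 25% in mutant samples (exact permutation p = 0.0857). The other sub-groups had exact permutation p-values of at least 0.686.

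**Figure D3:**
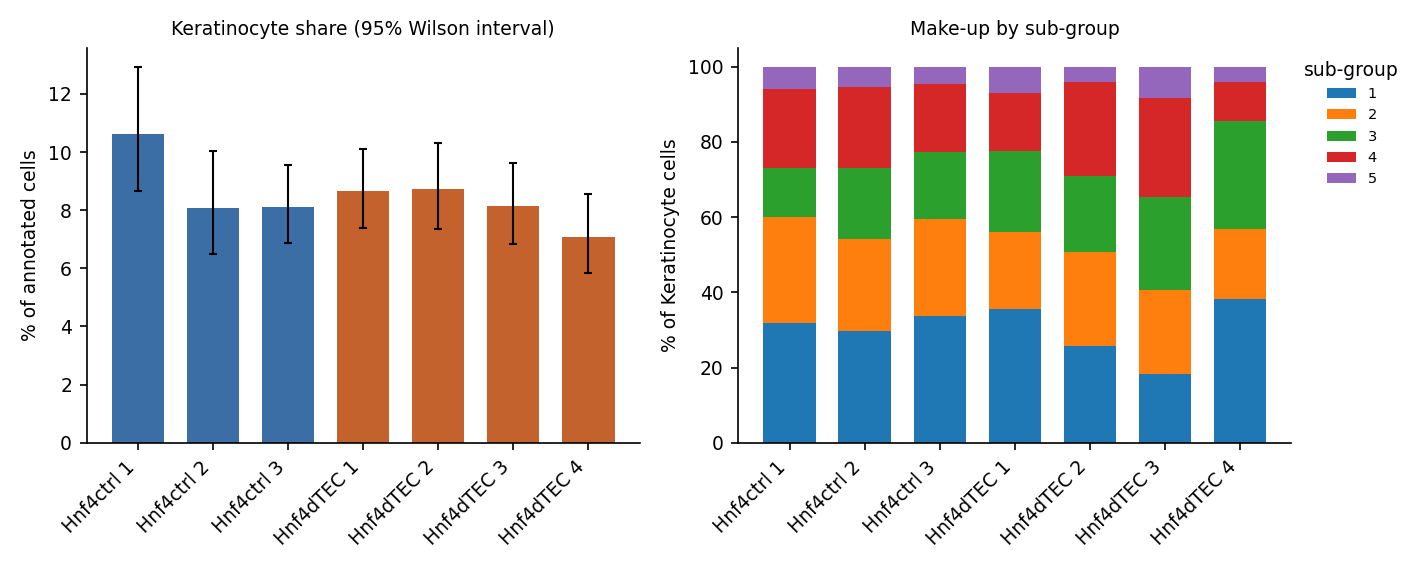
Left, Keratinocyte cells as a percent of each sample's annotated cells (bars), with 95% Wilson intervals that cover counting error only. Right, the make-up of each sample's Keratinocyte cells by sub-group, stacked to the whole. The control samples lie between 8.09% and 10.6% on the left and the mutant samples between 7.07% and 8.72%, and sub-group 3 takes 12.9% to 18.9% and 20% to 28.9% on the right.

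The targeted genes gave no check of the labels within this class. Hnf4a had 0, 1.23 and 3.52 CPM in the control samples and 0.518, 0.699, 0.705 and 3.01 CPM in the mutant samples, which is 7 UMIs in each group and too few to test. Hnf4g had 240, 182 and 179 CPM in control and 171, 178, 154 and 176 CPM in mutant samples. The highest mutant sample was just under the lowest control sample, and the difference did not pass (log2 fold change -0.27, adjusted p in edgeR = 0.685). Foxn1 had a log2 fold change of -0.40 (adjusted p in edgeR = 0.685). Reads come from transcript ends, which may lie outside the deleted parts.

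Between the genotypes, 9 genes of 11267 (0.0799%) passed the test in Keratinocyte cells, 7 lower (0.0621%) and 2 higher (0.0178%) in the mutant samples. Before adjustment, 822 genes had a p under 0.05. None of the 6 markers passed, and the control and mutant samples overlapped for each of them. The genes that passed included a pair of protease inhibitors, a growth factor, a small GTPase and a transcriptional coactivator.

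Spink1, a secreted inhibitor of trypsin-like proteases on chromosome 18 (43728082 to 43737557, minus strand), had the lowest adjusted p. It stood at 581, 323 and 235 CPM in the control samples and at 20.2, 30.8, 26.8 and 31.6 CPM in the mutant samples. Every control sample was above every mutant sample, with a log2 fold change of -3.84 (SE 0.31, adjusted p in edgeR = 0.00187). Few cells carried it: 10 cells held 75.4% of its 1342 control UMIs, and 5 cells held 50% of them. In cells thinned to 5000 UMIs it was seen in 16.3% of control and 6.22% of mutant cells. Other classes held more of it, with 7726 CPM in Entero-hepato cells, of which 2 control samples and 0 mutant samples had at least 10, and with 7864 CPM in control and 2300 CPM in mutant Secretory cells. Over all other cells its log2 fold change was -1.72 (adjusted p in edgeR = 0.503). How much of the Spink1 in Keratinocyte cells is free RNA from such classes was not tested.

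Cst6, which encodes cystatin M/E, an inhibitor of the skin proteases legumain and cathepsins L and V, marked this class more than any other. It had 8144, 6793 and 5767 CPM in the control samples and 4132, 3478, 3226 and 3203 CPM in the mutant samples, and the next class, Secretory, had 950 and 813 CPM. The groups did not overlap, and the log2 fold change was -1.0 (SE 0.14, adjusted p in edgeR = 0.0280). Most Cst6 UMIs sat in a few cells of each group, and whether the difference did so was not tested. In the control samples 10 of 287 cells held 69.6% of 24867 UMIs, in the mutant samples 10 of 481 cells held 64.1% of 21785 UMIs, and the median cell of either group had 5 UMIs. Within sub-groups 1 and 2 the levels were 13246, 12966 and 9232 CPM in control against 6814, 5993, 6579 and 4866 CPM in mutant samples. Within sub-groups 3, 4 and 5 the direction was the opposite, at 296, 344 and 413 CPM against 669, 608, 543 and 673 CPM. These sums did not overlap between the groups, but single sub-groups did: mutant sample 4 was at 124 CPM in sub-group 3 and 341 CPM in sub-group 4, within or below the control samples. In sub-group 2 alone control sample 3 (6768 CPM) lay below mutant samples 1 and 2 (8356 and 9986 CPM). The call was kept without control sample 3, and was lost without any other single sample (adjusted p in edgeR from 0.0524 to 0.118). Cst6 lies on chromosome 19 from 5344705 to 5349574 in mm10.

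Igf1, insulin-like growth factor 1, was higher in the mutant samples. Its level was 162, 160 and 184 CPM in the control samples and 325, 294, 425 and 340 CPM in the mutant samples, so that the lowest mutant sample exceeded the highest control sample. The log2 fold change was 1.01 (SE 0.14, adjusted p in edgeR = 0.0280). Cells with a UMI made up 24.3% to 25% of the control and 28.9% to 35% of the mutant samples. Igf1 was highest in sub-group 3 (877 CPM over all samples), whose share was higher in each mutant than in each control sample. Within sub-group 3 the samples overlapped, at 1064, 512 and 478 CPM in control and 889, 1040, 1553 and 662 CPM in mutant samples. Outside it they did not, at 70.8, 73.4 and 120 CPM against 200, 130, 165 and 244 CPM. The call was kept without mutant sample 4 and lost without any other single sample (adjusted p in edgeR from 0.0585 to 0.142). Of the Igf1 promoter entries, 1 window on chromosome 10 was found, inside the gene as GENCODE draws it, and it held the AP-1 motif and not the HNF4 motif. It is shown because it was the only window with a searched motif among the 5 genes that passed and had an entry, and it lies at chr10:87860861-87861110 (plus strand) in GRCm38.p6.
Igf1: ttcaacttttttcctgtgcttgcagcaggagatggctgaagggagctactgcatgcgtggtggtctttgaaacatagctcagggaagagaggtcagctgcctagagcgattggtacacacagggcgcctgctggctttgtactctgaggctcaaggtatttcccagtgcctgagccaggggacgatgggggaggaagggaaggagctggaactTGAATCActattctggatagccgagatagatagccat

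Rhoc, a small GTPase that acts on the actin skeleton, had 54.0, 63.9 and 58.1 CPM in the control samples and 10.4, 16.8, 18.3 and 11.3 CPM in the mutant samples. The spread within each group was small against the gap, and the log2 fold change was -2.07 (SE 0.21, adjusted p in edgeR = 0.00825). It was seen in 100 of 287 control cells and 63 of 481 mutant cells, and its levels did not overlap within sub-groups 1 and 2, within sub-group 3 or within sub-group 4. Rhoc was also lower in the other annotated cells of the mutant samples, with a log2 fold change of -0.96 (adjusted p in edgeR = 0.0226). It lies on chromosome 3 from 104788375 to 104794459.

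Eya1, a transcriptional coactivator and phosphatase of organ development, rose from 79.7, 88.5 and 79.2 CPM to 150, 138, 139 and 146 CPM. The groups did not overlap (log2 fold change 0.78, SE 0.10, adjusted p in edgeR = 0.0280). It was lower in Keratinocyte cells than in the other cells, whose mean was 420 CPM. Without sub-group 5 its log2 fold change was 0.48 (adjusted p in edgeR = 0.403), and with cells thinned to 5000 UMIs it was 0.52 (adjusted p in edgeR = 0.516). The call was kept without mutant sample 4 and lost without any other single sample (adjusted p in edgeR from 0.0579 to 0.185).

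Immp2l, a subunit of the protease of the mitochondrial inner membrane, had 297, 230 and 199 CPM in control and 111, 109, 89.6 and 85.0 CPM in mutant samples. Its log2 fold change was -1.31 (SE 0.16, adjusted p in edgeR = 0.0242), and the other cells showed -0.60 (adjusted p in edgeR = 0.0583). Tmc5, a membrane protein of the transmembrane channel-like family, had 20.6, 16.0 and 16.4 CPM against 3.63, 2.10, 2.12 and 1.5 CPM (log2 fold change -2.84, adjusted p in edgeR = 0.0242). It rested on 65 control and 15 mutant UMIs. Pcp4, a regulator of calmodulin, had 24.0, 9.83 and 40.5 CPM against 2.07, 1.40, 1.41 and 3.01 CPM (log2 fold change -3.70, adjusted p in edgeR = 0.0280), but its 105 control UMIs lay in 13 cells, and 10 of these held 97.1% of them. C130074G19Rik, a protein-coding gene on chromosome 1, had 9, 8 and 25 UMIs in the control and 1, 0, 1 and 0 UMIs in the mutant samples (adjusted p in edgeR = 0.0280). It was lower in the other cells too, with a log2 fold change of -4.04 (adjusted p in edgeR = 0.00763). Each of these calls was lost without at least 5 of the 7 samples in turn, with adjusted p-values in edgeR of up to 0.0729 for Immp2l, 0.123 for Tmc5, 0.185 for Pcp4 and 0.202 for C130074G19Rik.

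**Figure D4:**
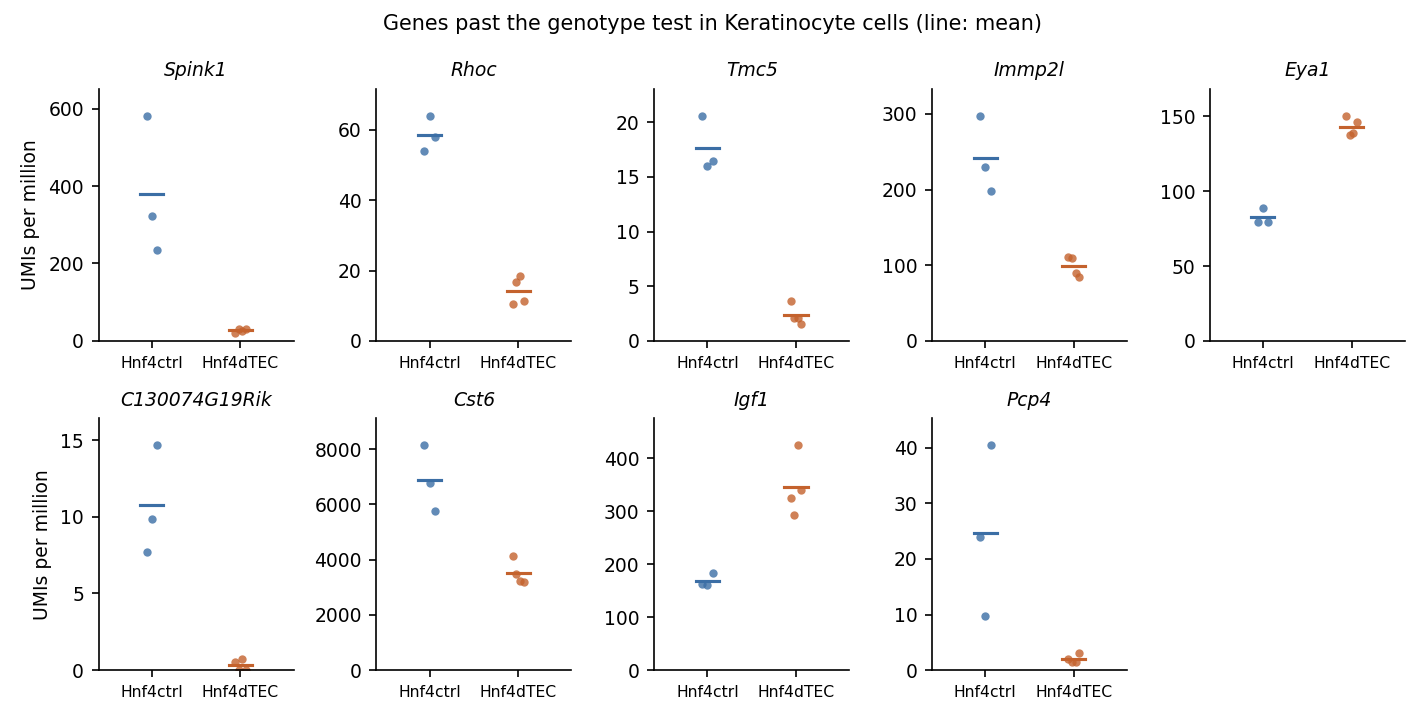
Level in CPM (linear axes from 0) of the 9 genes that passed the genotype test in Keratinocyte cells, with a point per sample and a line at each group's mean. Control and mutant points do not overlap for any of the 9 genes, and Igf1 and Eya1 are the genes that are higher in the mutant samples.

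The genes of the skin program were described as lists, chosen with earlier results of these data known. Over all 11267 genes tested the median log2 fold change was 0.00. It was -0.14 for the 6 markers, -0.03 for 16 spinous layer genes, -0.22 for 16 tested cornified envelope genes, 0.01 for 19 barrier lipid genes and -0.06 for 13 genes of desmosomes and tight junctions, and 0 members of these 5 lists passed. Flg had a log2 fold change of 0.00 (SE 0.21), Krt10 of 0.27 (SE 0.20), Elovl4 of -0.01 (SE 0.40) and Dsp of -0.11 (SE 0.09). Of the 10 genes of transglutaminases and the cystatin M/E pathway, Cst6 was the only gene that passed. The summed level of that list was 8330 to 10390 CPM in control and 4873 to 6632 CPM in mutant samples, most of which is Cst6 itself. The cathepsins Ctsd and Ctsb of that list had log2 fold changes of -0.40 and -0.28, and neither passed. Of 22 tested serine proteases and inhibitors, Spink1 passed. The sum of that list was 6395 to 7941 CPM in control and 4745 to 6136 CPM in mutant samples, without overlap, although Spink5, its most abundant member, did not pass (log2 fold change -0.44, adjusted p in edgeR = 0.585).

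Of 23 tested transcription factors, Eya1 alone passed, while Trp63 had a log2 fold change of -0.01 and Cebpb of 0.06. Of 7 tested IGF pathway genes, Igf1 alone passed. Its receptor Igf1r had a log2 fold change of 0.17 (adjusted p in edgeR = 0.832), and Igfbp5, a binding protein for it, of -0.77 (adjusted p in edgeR = 0.585). Among 13 tested skin alarmins and cytokines 0 passed. Their median log2 fold change was -0.38, with 9 of 13 below 0, against 5624 of all 11267 genes tested. The summed level of the 17 members in the matrix was 2856 to 4153 CPM in control and 3567 to 4811 CPM in mutant samples, with overlap. Without overlap, 1 tested member was lower (Il1f9) and 2 were higher (S100a14 and Defb6), as were 3.39% and 4.76% of all tested genes. Il1f9, also called Il36g, was lower in every mutant than in every control sample, with 54.0, 63.9 and 66.3 CPM against 38.9, 32.1, 29.6 and 50.4 CPM (log2 fold change -0.73, adjusted p in edgeR = 0.349), and was picked out after its values were seen. Defb6 was higher without overlap and had 1972, 1187 and 1896 CPM in control against 3093, 2062, 3168 and 2082 CPM in mutant samples (log2 fold change 0.60, adjusted p in edgeR = 0.585). The 11 MHC class II presentation genes had a median of -0.14, the 9 thymic epithelium genes -0.20, the 9 tested basal keratinocyte genes -0.29 and the 10 dissociation stress genes -0.33, with 0 passing in each.

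Gut and liver genes, the known domain of the deleted receptors, had members in these cells too. Of 30 such genes 13 had enough UMIs to be tested, 0 passed, and their median log2 fold change was -1.33. Their control and mutant samples did not overlap for 4 genes, all lower in the mutant samples, where 3.39% of all tested genes were lower without overlap and 4.76% were higher without overlap. These 4, picked out after their values were seen, were Lgals4 (galectin-4), Calml4, and the brush border genes Anks4b and Cdhr5. Lgals4 had 41.1, 67.6 and 101 CPM in control and 6.74, 6.99, 7.05 and 23.3 CPM in mutant samples (log2 fold change -2.75, adjusted p in edgeR = 0.0650). Entero-hepato cells had 897 CPM of Lgals4, in 2 control and 0 mutant samples with at least 10 cells. Its control and mutant means were 155 and 2.33 CPM in Microfold, 148 and 3.82 CPM in Secretory and 31.9 and 3.79 CPM in Neuroendocrine cells. Immature, Ciliated and TA cells had higher mutant means, of at most 9.23 CPM. How much of the Lgals4 in Keratinocyte cells is free RNA from other classes was not tested. Calml4 had 99.4, 87.3 and 109 CPM against 25.4, 33.5, 31.03 and 61.7 CPM (adjusted p in edgeR = 0.0894). Mutant sample 4 was the highest mutant sample for both. For Reg3g, an antimicrobial lectin of gut, it had 1480 CPM where the other mutant samples had 97.4, 165 and 83.9 CPM and the control samples 2451, 477 and 1056 CPM. Without mutant sample 4 the number of genes that passed over the whole table was 18 in place of 9. Rbp2, a retinol carrier of enterocytes, went the other way, with 6.00, 2.46 and 9.97 CPM against 38.3, 9.08, 28.9 and 51.2 CPM (log2 fold change 2.19, adjusted p in edgeR = 0.365).

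The 10 genes next in line did not pass, with adjusted p-values in edgeR from 0.0532 to 0.0763. Nrg3, a ligand of the neuregulin family, had 2.57, 2.46 and 2.35 CPM in control and 13.5, 16.1, 16.2 and 9.78 CPM in mutant samples. Anxa13, an annexin of gut epithelium, had 36.8, 29.5 and 42.2 CPM against 13.99, 13.98, 9.87 and 6.77 CPM. Gnat3, the taste G protein alpha subunit that is also a tuft marker, had 27.4, 39.3 and 26.4 CPM against 143, 88.8, 79.7 and 73.7 CPM. The other cells had 1010 CPM of it, and the summed tuft markers given above stood beside it. Pcsk5, a proprotein convertase, had 74.6, 104.5 and 79.8 CPM against 23.3, 47.5, 33.9 and 34.6 CPM. Pcsk5 was among the genes that led sub-group 3, at 172.5 CPM against 26.5 CPM in the other Keratinocyte cells. The share of that sub-group was higher in each mutant than in each control sample without passing, whereas Pcsk5 was lower. How the 2 relate was not tested. The remaining genes were Lgals4, 2200002D01Rik (log2 fold change -0.70), Cyp7b1 (0.71), Nckap5 (-0.92), Plppr1 (-1.86) and Rgs4 (-1.59).

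The last comparison asked whether the genotypes differed by another amount in Keratinocyte cells and in the other annotated cells of the same samples. Of 17472 genes in the test of that difference, Igf1 alone passed (0.00572%). While Igf1 was higher in mutant Keratinocyte cells, the other cells had 79.2 ± 16.4 CPM (SD, n = 3) and 43.7 ± 1.88 CPM (SD, n = 4) in control and mutant samples, with a change of -0.85 on the log2 scale that did not pass by itself (adjusted p in edgeR = 0.0791). The difference between the changes was 1.86 on the log2 scale (SE 0.16, adjusted p in edgeR = 0.00159), and it passed without each of the 7 samples in turn (adjusted p in edgeR of at most 0.0186). By class, Igf1 had 664 CPM in control and 350 CPM in mutant Microfold cells, 460 and 328 CPM in Aire-adjacent cells, 776 CPM in the 2 control samples with enough Entero-hepato cells, 13.5 and 50.3 CPM in Neuroendocrine cells, and 35.6 and 83.0 CPM in Secretory cells. In Klk-rich cells 1 control sample had 286 CPM and 4 mutant samples a mean of 366 CPM. Mean levels were thus higher in mutant samples in some classes beside Keratinocyte, and these differences were not tested. The classes make up different shares of the other cells in each sample, so a change of mix and a change within classes cannot be told apart in that sum. For Spink1 the difference was -2.22 (adjusted p in edgeR = 1.00) and for Cst6 -0.77 (adjusted p in edgeR = 0.808), and neither passed. Rhoc and C130074G19Rik passed in both sets of cells, that is 2 of 9 genes in Keratinocyte cells and 2 of 21 in the other cells. In the other cells 20848 genes were tested, and all 21 that passed were lower in the mutant samples.

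**Figure D5:**
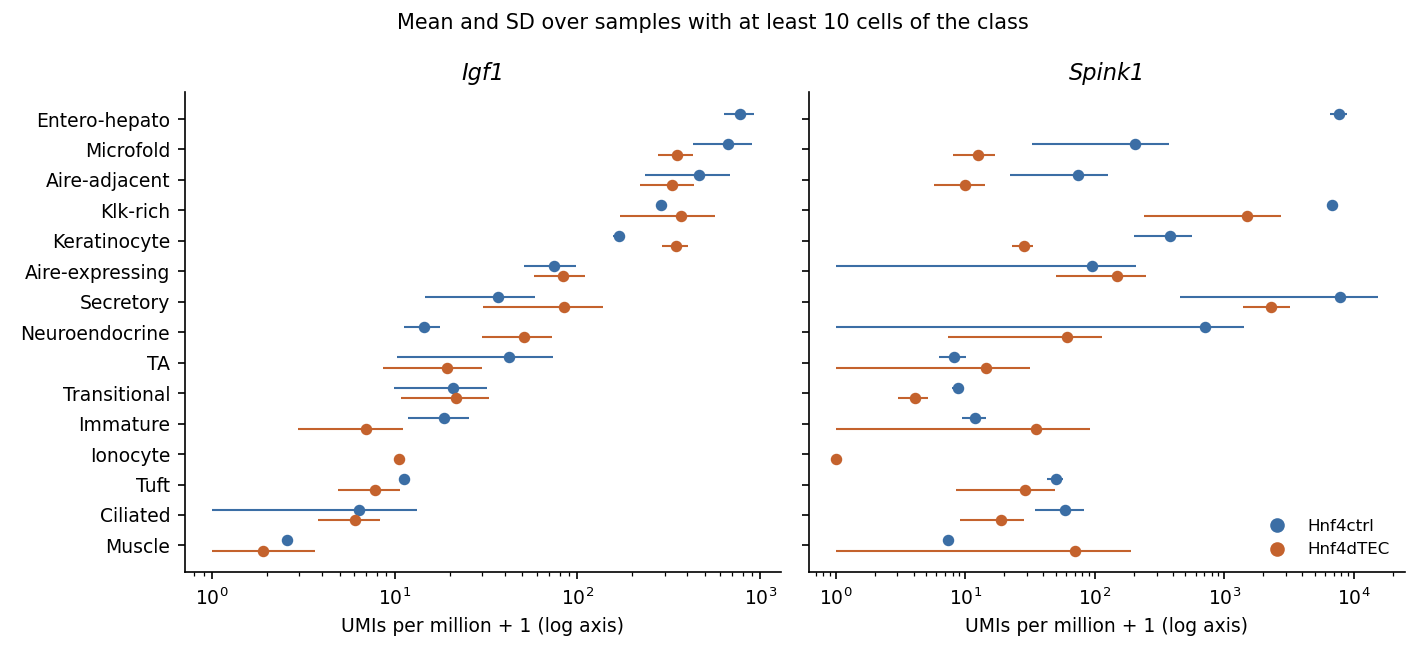
Mean level of Igf1 and Spink1 in each cell class, in CPM plus 1 on log axes, with bars of 1 SD over samples that have at least 10 cells of the class (bars are cut at 0, and a point without a bar is 1 sample or has an SD smaller than the point). In Keratinocyte cells Igf1 is at 168 in control and 346 in mutant samples, and Spink1 at 380 and 27.3.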

How the data were processed

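RNA was counted in single sorted mTEClo cells of 7 hash-tagged samples (3 Hnf4ctrl, 4 Hnf4dTEC). The deposited matrix holds raw UMI counts per gene and barcode (18089 barcodes, 55487 genes). Per the submitters' processing notes, the tools were Cell Ranger 6.1.0 and Seurat 4.0.2, with the build mm10, while per the file headers the matrix was written by Cell Ranger 7.0.0. The sample and class of each cell are the authors' deposited labels, in a table whose making is not given in the sources used here. No column of another series was present, and no doublet caller was run.

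Counts of the 768 Keratinocyte cells were summed per sample and tested with edgeR 4.0.16 in R 4.3.3 (two-sided quasi-likelihood test), after filterByExpr and TMM, with Benjamini-Hochberg adjustment over 11267 genes and a threshold of 0.05. Log2 fold changes are mutant over control. The difference from the other cells was tested as an interaction with the sample as a block, over 17472 genes. Shares of cells were tested by exact permutation in scipy 1.17.1. The interaction and genotype tests were first tested on simulated data. Sub-groups came from Leiden clustering (scanpy 1.11.5, leidenalg 0.10.2; 1500 variable genes, 20 components, 15 neighbours, resolution 0.5, seed 0). Gene positions came from GENCODE in mm10 and promoters from RefSeq GRCm38.p6.

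Genes were named by rule: all that passed, the next 10 by p, the markers, the 20 leading genes and those past the interaction. Hnf4a, Hnf4g and Foxn1 were named too. The rule also covered the 4 highest members of each list, of which only some are named. Others were chosen after their values were seen. The result of 1 gene list is not reported here. Members and lists were chosen with earlier results of these data known. Alternatives were RLE size factors, no filter, DESeq2 1.42.0, a replicate block, other sets of cells, thinning to 5000 UMIs per cell and leaving out each sample. The hash-tag library was not analysed as a sample. Tag counts in the matrix served only to find cells whose most abundant tag belonged to another sample.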

Additional observations from a re-analysis of the deposited data

Results flagged for a closer look

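In Keratinocyte cells the Hnf4a level of mutant sample 4 was 3.01 CPM, apart from the 0.518, 0.699 and 0.705 CPM of the other mutant samples. It rests on 4 UMIs. The Foxn1 level of mutant sample 1 was 41.5 CPM, apart from the other mutant samples, which lay close to each other. These were the gaps past Dixon's limit among 36 groups of 4 samples looked at, and chance flags about 1 in 20 such groups. For Igf1 the genotype difference itself differed between Keratinocyte cells and the other cells, by 1.86 on the log2 scale (SE 0.16, edgeR adjusted p = 0.00159). All 4 mutant samples were above all 3 control samples in Keratinocyte cells. Over the 15 alternatives it was between 1.56 and 2.26, with adjusted p-values in edgeR between 1.38e-14 and 0.0253.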

How the results depend on the processing

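The genotype test gave 9 genes in Keratinocyte cells. It gave 326 without the filter on low counts (26156 genes tested), 46 with DESeq2, 5 without the 42 cells with the most UMIs, and 0 without cells holding 2 or more markers of another class, which left 100 of 768 cells and 2885 genes. Leaving out each sample in turn gave between 2 and 18 genes. Spink1 and Rhoc passed under all 15 alternatives that could test them, and Cst6 under 6 of 16. The sign of Eya1 reversed in those 100 cells, to -1.87 on the log2 scale (edgeR adjusted p = 0.194), against an adjusted p of 2.07e-04 to 0.516 over all alternatives; the cause was not tested. The difference between Keratinocyte and other cells was called for 1 gene, and for 146 without the filter, 4 without the cells with the most UMIs, 64 without cells holding markers of another class, and between 1 and 5 with samples left out. The share of cells was lower in mutant samples by -0.793 percentage points, between -1.22 and 0.0449 with samples left out, the last without control sample 1. Control and mutant samples of the same replicate number showed little correlation of their deviations (0.040, 0.000 and -0.016). So few samples cannot exclude a pairing. With the replicate block 12 genes passed, 6 of them among the 9. In that block mutant sample 4 had no control sample of its number, so it did not inform the genotype difference. The class has 74 to 143 cells per sample, which limits calls for genes with few UMIs, and C130074G19Rik got no adjusted p from DESeq2.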
